A study of Homo sapiens with 3 samples.

Results

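The proteasome subunit and chaperone genes were examined for ZBTB11 binding in NCI-H1299, a human p53-null lung cancer line. The members were the GENCODE protein-coding genes whose symbols start with PSMA, PSMB, PSMC, PSMD, PSME, PSMF or PSMG, together with POMP, SEM1 and ADRM1. This gave 53 of 20033 protein-coding genes. PSMC3IP and PSME3IP1 entered by their symbols only, since their products are not parts of the particle. ZBTB11 has a BTB domain and zinc fingers, and the study mapped where it sits on chromatin by chromatin immunoprecipitation and sequencing (ChIP-seq). Cells of the unmodified (wild-type) line were grown in DMEM with serum and given no treatment. They were immunoprecipitated with an antibody to endogenous ZBTB11 or with normal IgG, 1 library each. All values therefore come from a single untagged line with no replicate, no member was tested between conditions, and counts of members are set beside the same counts over all protein-coding genes.

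The proteasome degrades proteins marked with ubiquitin. Its core particle is a stack of rings of alpha subunits (PSMA genes), which gate the entry, and beta subunits (PSMB genes), which carry the proteolytic sites. The cap has a base, with a ring of ATPases that unfold the substrate, and a lid, which removes ubiquitin. Dedicated chaperones assemble the core and the base, interferon replaces the catalytic beta subunits by those of the immunoproteasome, and alternative activators or an inhibitor can take the place of the cap. The subunit genes are expressed in nearly all cells and are known to be induced together by NFE2L1 when proteasome activity falls short.

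For each gene the ZBTB11 peak with the smallest p-value within 3 kb of any annotated transcript start was taken, called here the strongest peak. Its height is given as the number of fragments piled up at the summit, recovered from the deposited fold enrichment and p-value, with an exact Poisson 95% interval that covers counting error only. Over the whole ZBTB11 list of 346891 peaks the median summit held 5 fragments and the highest 515, over a genome-wide background of 1.35. The authors called peaks at a p-value below 0.05, so the mere presence of a peak says little: 52 of 53 members had one, beside 87.7% of all protein-coding genes. The list of IgG peaks covers chromosomes 1, 10, 21 and Y, and IgG values are given for chromosomes 1, 10 and 21.

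The sequence under the strongest summits was read first. In an earlier examination of these peaks, summits often carried the heptamers CCGGAAG or CAGGAAG, which hold the GGAA core that ETS-family transcription factors recognise, and these letters are called the consensus here. They are shown for the 9 members with at least 100 fragments and a CCGGAAG within 60 bp of the summit, where the overlapping reading of the PSMG3 site on the other strand is left out, with the consensus in capitals and 9 reference bases on either side, 5′ to 3′ on the strand that reads CCGGAAG, in hg38.
PSMG3, chr7:1570076-1570100, plus strand: gtccaccttCCGGAAGtcagggccg
PSMF1, chr20:1118474-1118498, minus strand: ccctcaaagCCGGAAGccgggtctt
PSMF1, chr20:1118588-1118612, minus strand: gcggggaagCCGGAAGtagtcccaa
PSMC2, chr7:103347611-103347635, minus strand: ccttccccaCCGGAAGtaaattggg
PSMC2, chr7:103347643-103347667, plus strand: aagacaccaCCGGAAGcaaggaagg
PSMC1, chr14:90256554-90256578, minus strand: ctgccgctgCCGGAAGttcctccac
PSMD14, chr2:161308412-161308436, plus strand: ctagtgaacCCGGAAGtgcttcgcg
PSMA6, chr14:35292371-35292395, plus strand: gctggtaccCCGGAAGcagtcgctg
PSMA6, chr14:35292390-35292414, minus strand: aagcacctcCCGGAAGttgcagcga
PSMD9, chr12:121888672-121888696, minus strand: gctgggtcaCCGGAAGccgcgccct
PSMB7, chr9:124415473-124415497, minus strand: ccagcgacgCCGGAAGtgctcggct
POMP, chr13:28659077-28659101, minus strand: ccacatccgCCGGAAGtgcgtccgt
Not every high summit had these letters. PSMD11, PSMC5 and ADRM1, whose summits held 291, 123 and 116 fragments, had no consensus anywhere in their strongest peak, and their summits are shown in the reference's plus strand with the summit base in capitals.
PSMD11, chr17:32444430-32444458: gggagctacaggcgGagggacccgagggc
PSMC5, chr17:63827050-63827078: acctagacccagagCcgctttctccacac
ADRM1, chr20:62302784-62302812: ctggtccaagcgccCtgcggcccgcgctt
The other form of the consensus is shown for a high and a low summit, PSMB1 with 185 fragments and PSMB8 with 6.
PSMB1, chr6:170554247-170554271, plus strand: atggaaacaCAGGAAGtgacctatg
PSMB8, chr6:32844838-32844862, plus strand: caggcgagcCAGGAAGgaccagcgg

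The members carried higher ZBTB11 summits than protein-coding genes in general. The median over the 53 members, with the gene lacking a peak placed lowest, was 27 fragments against 9 over all 20033 genes. A peak with a p-value of at most 1e-05, a −log10 p of 5 or more, was present at 41 members, or 77.4%, beside 46.9% of all genes. A peak with a q-value of at most 0.05 was present at 44 members, or 83.0%, beside 55.3%. At the top of the list the difference in percentage points was smaller, but the ratio of the 2 shares was larger. A summit of at least 100 fragments was found at 16 members, or 30.2%, beside 8.33% of all genes, and the strongest peak ranked among the 1000 strongest of the whole list at 11 members, or 20.8%, beside 6.01%. Without PSMC3IP and PSME3IP1 these counts were 39 at the p threshold, 42 at the q threshold and 16 at 100 fragments among 51 genes, with a median of 27.

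**Figure D1:**
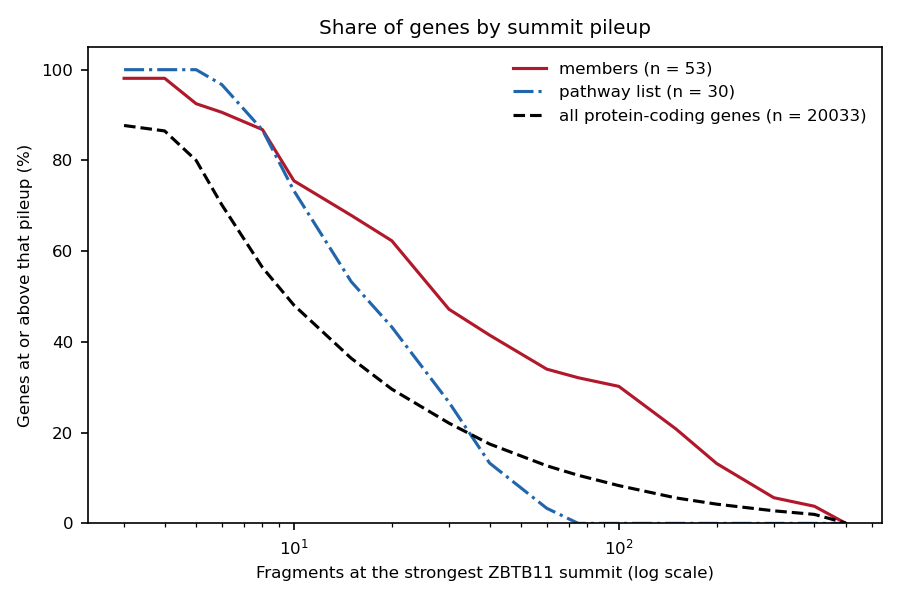
The share of genes (vertical axis, percent) whose strongest ZBTB11 summit held at least the number of fragments on the horizontal axis (log scale) is drawn for the 53 members, the 30 genes of the pathway list and all 20033 protein-coding genes. At 100 fragments the members' line stands at 30.2%, that of all genes at 8.33% and that of the pathway list at 0%.

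The members themselves ranged over 2 orders of magnitude, from 4 fragments to 488. The 9 members without a peak within the q threshold were PSMA2, PSMB5, PSMB6, PSMB8, PSMB11, PSMA8, PSME1, PSMG2 and PSMG4, and PSMD1, SEM1 and PSMD5 reached the q threshold but not the p threshold. Next to the p threshold, PSMG1 lay just inside with a −log10 p of 5.27 and PSMD1 just outside with 4.60, both with 9 fragments. Next to the q threshold, SEM1 lay inside with a −log10 q of 1.30 and PSMG2 outside with 1.13. At 100 fragments, POMP had exactly 100 (81.4 to 122) and PSMD7 had 88.

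**Figure D2:**
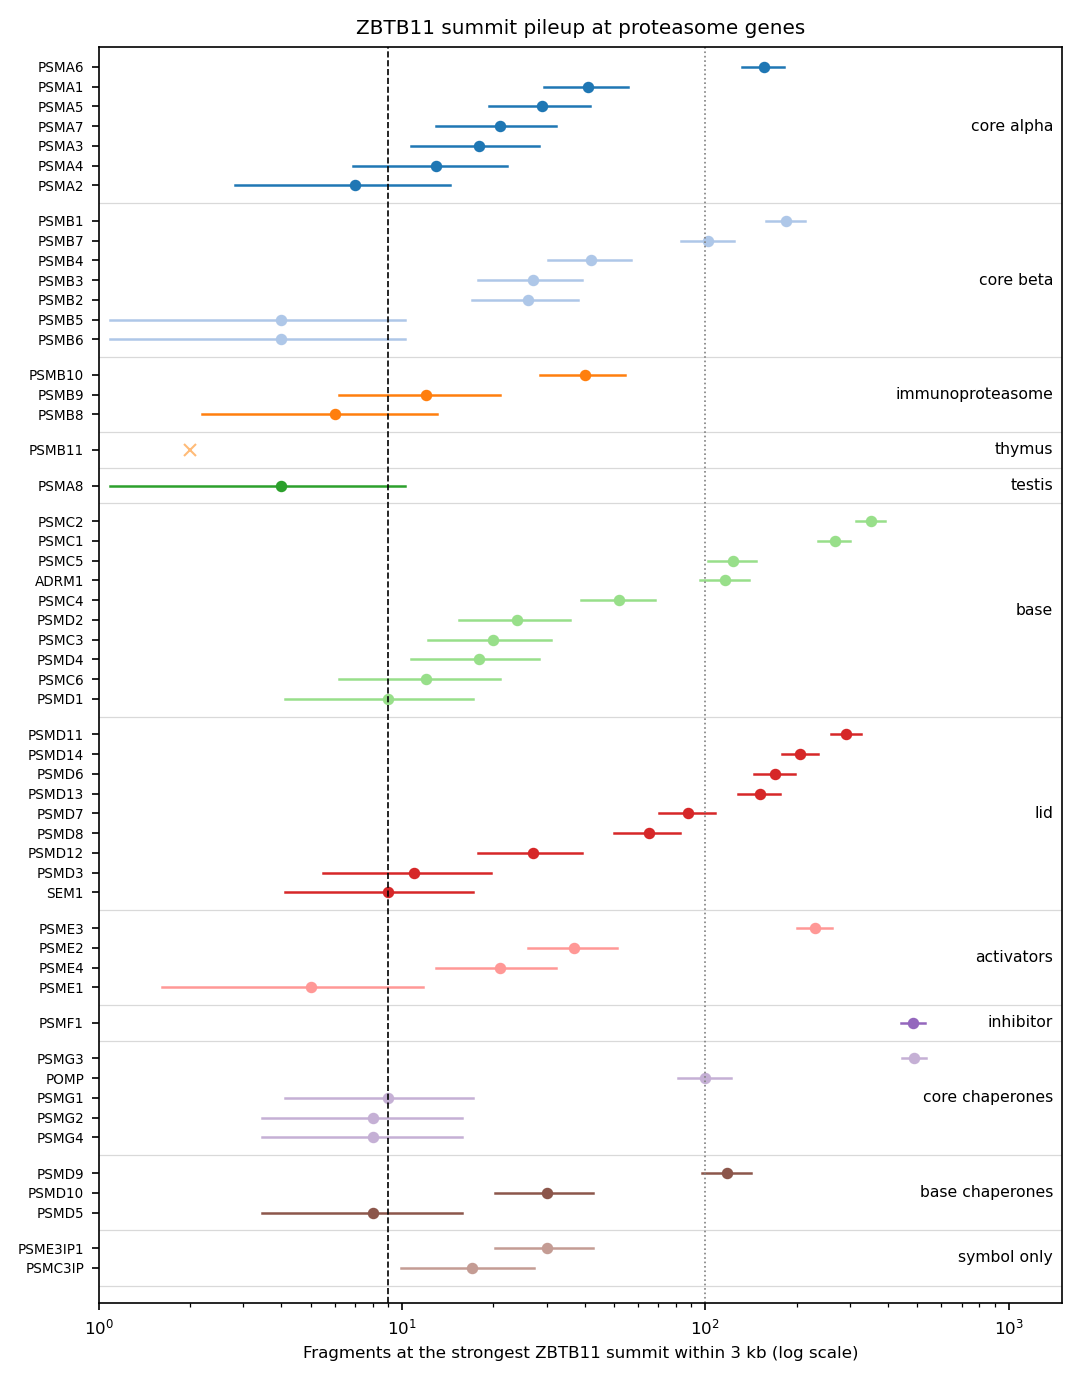
Fragments at the strongest ZBTB11 summit (log scale) are plotted for every member, grouped by the place of its product in the particle, with exact Poisson 95% intervals. The dashed line is the median of 9 fragments over all protein-coding genes and the dotted line marks 100 fragments. The cross marks PSMB11, which had no peak and is placed at the left by hand, and each large class spans from summits near the dashed line to summits beyond the dotted one.

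Among the alpha subunits of the core, 6 of 7 had a peak within the p threshold, and the median was 21 fragments. PSMA6 had the highest of these summits, with 156 fragments (132 to 182) over a local background of 6.35, a fold enrichment of 21.4, and only 5.31% of protein-coding genes had a higher one. Its summit lay 2 bp upstream of an annotated start, between the pair of consensus sites shown above, whose middle bases were 3 bp before and 16 bp after it. PSMA1 had 41 fragments, PSMA5 29, PSMA7 21, PSMA3 18 and PSMA4 13. PSMA2 had 7 (2.81 to 14.4), below the median of all genes, with a −log10 p of 2.98. The alpha genes thus carried unequal summits in this library, since the interval of PSMA6 lay above that of every other alpha gene.

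Among the beta subunits of the constitutive core, 5 of 7 reached the p threshold, with a median of 27. PSMB1, a structural subunit, had 185 fragments (159 to 214), but this summit lay 999 bp upstream of its own start and 4 bp from a start of TBP, the TATA-binding protein gene on the opposite strand. The highest summit nearer to PSMB1 than to any other coding gene had 63 (48.4 to 80.6). The other structural subunits PSMB4, PSMB3 and PSMB2 had 42, 27 and 26. The 3 catalytic genes were at opposite ends of the class. PSMB7, which provides the trypsin-like site, had 102 (83.2 to 124), whereas PSMB6 and PSMB5, which provide the caspase-like and chymotrypsin-like sites, had 4 each (1.09 to 10.2). The PSMB6 summit lay 8 bp from its start, whereas that of PSMB5 lay 2013 bp upstream, and no PSMB5 peak was left within 1 kb.

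The immunoproteasome genes encode replacements for these catalytic subunits, PSMB10 for PSMB7, PSMB9 for PSMB6 and PSMB8 for PSMB5, and the replacement for PSMB7 again had the highest summit. PSMB10 had 40 fragments (28.6 to 54.5), PSMB9 had 12 (6.20 to 21) and PSMB8 had 6 (2.20 to 13.1). The intervals of PSMB9 and PSMB8 overlapped, so their order is not resolved, and PSMB10 lay above both. The median of the 3 genes was 12, against 26.5 for the 14 constitutive core genes, which ranged from 4 to 185 and so spanned all 3. The PSMB10 summit at chr16:67935966 lay in a coding exon of the canonical transcript, 19 bp from the start of a shorter one and 884 bp downstream of the canonical start, in a peak from 67935648 to 67936906. PSMB8 and PSMB9 lie on opposite strands within the MHC region on chromosome 6, and an alternative start of PSMB9 lies 89 bp from the canonical start of PSMB8. The PSMB8 peak, with a −log10 p of 2.36, was 135 bp from the nearest start of its own and 22 bp from one of PSMB9. The PSMB9 peak, from 32853973 to 32854437, had its summit in the 5′ UTR and was also the strongest peak of TAP1, which encodes a peptide transporter of antigen presentation and has an alternative start 376 bp from the canonical start of PSMB9.

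The tissue-restricted core genes had a very low summit or none. PSMA8, the alpha subunit of the testis proteasome, had 4 fragments (1.09 to 10.2) with a −log10 p of 1.90, and 80.0% of protein-coding genes had a higher summit. That peak lay in an intron 6078 bp downstream of the canonical start and 139 bp upstream of an alternative one, and no peak lay within 3 kb of the canonical start. PSMB11, the catalytic subunit of the thymus proteasome, was the member with no peak, the nearest one lying 4923 bp away. PSMA8 did not stand apart from PSMB5 and PSMB6, which had the same 4 fragments.

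The cap had the higher median, 65 fragments over 19 genes against 26.5 over the constitutive core, and all 19 cap genes had a peak within the q threshold, beside 11 of 14 core genes and 55.3% of all genes. Summits of at least 100 fragments were found at 8 of 19 cap genes and 3 of 14 core genes, beside 8.33% of all genes. These counts include PSMC5 and PSMD13 of the cap and PSMB1 of the core. Their summits lay nearer to FTSJ3, SIRT3 and TBP. The highest peak nearest to the gene itself had 6 fragments at PSMD13 and 63 at PSMB1, and PSMC5 had none. Their ranges overlapped almost entirely, 9 to 351 and 4 to 185, and the difference was not tested. The gap in medians depended on summits shared with neighbours. With peaks restricted to those nearest to the gene itself, the cap median lay close to that of the core.

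In the base, 9 of 10 genes reached the p threshold. PSMC2, an ATPase, had 351 fragments (315 to 390), and PSMC1, another ATPase of the ring, had 267 (236 to 301). PSMC5 had 123 (102 to 147) and ADRM1, a ubiquitin receptor, had 116 (95.9 to 139). PSMC4 had 52, PSMC3 20 and PSMC6 12, so the 6 genes of the ATPase ring ranged from 12 to 351. The scaffold genes PSMD2 and PSMD1 had 24 and 9, and PSMD4, the other ubiquitin receptor of the base, had 18. The PSMC2 summit at chr7:103347637 lay 1 bp from a start and had a local background of 30.1, the highest of any member, and hence a fold enrichment of 11.3 against 19.6 at PSMC1 with 12.7. A further summit of 345 fragments lay 2759 bp away, nearer to DNAJC2, a cochaperone gene on the opposite strand whose canonical start is 2876 bp from that of PSMC2.

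In the lid, 8 of 9 genes reached the p threshold, with a median of 88. PSMD11, which contributes to cap assembly, had 291 fragments (259 to 326) with a fold enrichment of 23.0, in a peak at chr17:32444106-32444842 whose summit lay 17 bp upstream of a start. PSMD14, the deubiquitinase of the lid, had 206 (179 to 236), with its summit 15 bp upstream of a start. PSMD6 had 170 (145 to 198). These 3 summits lay within 17 bp of a start of the gene itself and none was nearer to another coding gene. PSMD13 had 151 (128 to 177), but that summit was 30 bp from a start of SIRT3 on the opposite strand and 162 bp from its own, and the peak nearest to PSMD13 had 6 (2.20 to 13.1). PSMD7, the partner of PSMD14, had 88, PSMD8 65, PSMD12 27, PSMD3 11, and SEM1, the smallest subunit, had 9 (4.12 to 17.1).

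Both ends of the class of alternative regulators were occupied. PSMF1, which encodes an inhibitor of the core, had 485 fragments (443 to 530) over a background of 23.5, with a fold enrichment of 19.9 and a −log10 p of 441. This was the smallest p-value of any member, rank 28 of the whole list, and 0.379% of protein-coding genes had a higher summit. The peak at chr20:1118117-1119006 had its summit 57 bp upstream of a start, between consensus sites 55 bp before and 59 bp after it. Of the activators, PSME3, whose product acts in the nucleus, had 230 (201 to 262), PSME2 had 37, PSME4 had 21 and PSME1 had 5 (1.62 to 11.7). The PSME3 summit, 50 bp from a start of its own, was also the strongest of BECN1. BECN1 is on the opposite strand, and the summit lay 140 bp from its nearest start. The products of PSME1 and PSME2 form 1 interferon-inducible ring, yet their summits differed beyond the counting intervals. The PSME2 value needs care, since its summit lay 2084 bp downstream of the nearest PSME2 start and 277 bp from a start of EMC9. A separate peak nearer to PSME2 than to any other coding gene had 38 (26.9 to 52.2), so the height did not rest on the EMC9 peak. RNF31 starts on the opposite strand 73 bp from the canonical PSME2 start, so this separate peak may be shared as well.

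The chaperones of the core held the highest and some of the lowest summits. PSMG3 had 488 fragments (446 to 533) over a background of 26.5, with a fold enrichment of 17.8 and rank 100, in a peak at chr7:1569708-1570641 whose summit lay 91 bp upstream of a start. Only 0.265% of protein-coding genes had a higher summit. The highest summit of the whole list held 515, below the upper ends of the intervals of PSMG3 and PSMF1. Over all genes, 1.98% had at least 400 fragments and 0.0749% at least 500. Whether heights so close to the maximum are compressed was not tested. PSMG4, its partner in the same heterodimer, had 8 (3.45 to 15.8) with a −log10 p of 2.97. The other heterodimer showed low values in both partners, with 9 for PSMG1 and 8 for PSMG2, and the PSMG2 summit lay by an alternative start 44712 bp from the canonical one, where the strongest peak had 6. POMP, which closes the assembly of the core and is degraded by it, had 100 (81.4 to 122). Of the chaperones of the base, PSMD9 had 118 (97.7 to 141), PSMD10 had 30 (20.2 to 42.8) and PSMD5 had 8. The PSMD10 summit was 13 bp from a start of ATG4A, an autophagy protease gene, and 274 bp from its own. The PSMD5 summit lay in an intron 17935 bp downstream of the canonical start. With the canonical start alone, the strongest PSMD5 peak had 6 fragments and a −log10 q of 0.239, outside the q threshold. The symbol-only pair had 30 (PSME3IP1) and 17 (PSMC3IP).

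Summits of genes whose products pair directly were compared for 4 pairs picked after the values were seen. The counting intervals did not overlap for PSMG3 and PSMG4, PSME2 and PSME1, or PSMD14 and PSMD7, whereas those of PSMG1 and PSMG2 did.

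The strongest summits of the members sat close to transcript starts. The median distance to the nearest start of the gene itself was 81 bp, against 258 bp over all genes with a peak, and 33 of 52 members, or 63.5%, had their summit within 100 bp, beside 30.9% of all genes. In 30 members the summit was upstream of the canonical transcript, in 9 in its 5′ UTR, in 9 in an intron, in 3 in a coding exon and in 1 downstream. Among the 16 members with at least 100 fragments, 14, or 87.5%, had the summit within 100 bp of a start, beside 64.4% of the 1668 genes of that height. The peaks were 808 bp wide at the median, against 664 bp over all genes. The share of G and C in the 101 bp around the summit was 62.4% at the median and 63.4% over all genes, so the summits did not differ much in base composition.

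**Figure D3:**
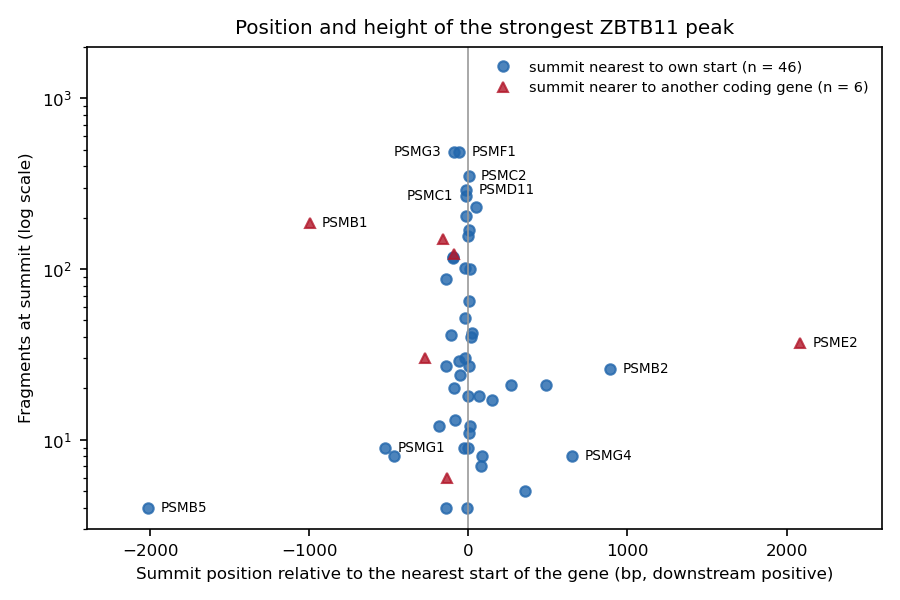
The position of each strongest summit relative to the nearest start of the gene (bp, downstream positive) is plotted against its fragments (log scale) for the 52 members with a peak. Triangles mark the 6 summits that lay nearer to a start of another protein-coding gene, and the highest summits gather within 100 bp of the start.

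Many members share their promoter region with a neighbour. A protein-coding start on the opposite strand lay within 1 kb of the canonical start of 13 members, or 24.5%, beside 13.9% of all genes. These pairs were PSMA2 with MRPL32, PSMA7 with SS18L1, PSMB1 with TBP, PSMB8 with PSMB9, PSMB9 with TAP1, PSMC5 with FTSJ3, PSMD13 with SIRT3, PSMD10 with ATG4A, PSME2 with RNF31, PSME3 with BECN1, PSME4 with ACYP2, PSMG2 with CEP76 and PSME3IP1 with RSPRY1. For 6 members (11.5%, beside 13.7% of all genes) the strongest summit lay nearer to another coding gene, and these were PSMB1, PSMD13, PSME2, PSMC5, PSMD10 and PSMB8. PSMC5 and FTSJ3 illustrate the limit, since the summit of 123 fragments lay 0 bp from a start of FTSJ3 and 88 bp from one of PSMC5, and ChIP cannot assign it to either. When peaks were restricted to those whose summit was nearest to the member, 49 had a peak, 38 one within the p threshold and 13 one of at least 100 fragments, beside 82.1%, 39.0% and 6.20% of all genes under the same restriction. The median was then 24 against 7.

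The consensus lay under the summit more often at the members than at other genes, although the difference was smaller than that in height. All 7 letters fell within 50 bp of the summit in 13 of 53 members, or 24.5%, beside 13.9% of all genes, and within 100 bp in 20, or 37.7%, beside 22.4%. Among genes of similar height this difference was not seen within 50 bp. Of the 16 members with at least 100 fragments, 6 (37.5%) had the consensus within 50 bp, beside 43.6% of all genes of that height, and 11 (68.8%) within 100 bp, beside 59.7%. Members with the consensus within 100 bp had a median of 101 fragments and those with a peak but without it 22, against 31 and 9 over all genes. The paper reports finding CCGGAAG or CAGGAAG de novo in high ZBTB11 peaks of the same experiment. Comparisons of the consensus with height, here and below, are therefore not independent of how it was found. The letter at the variable position also went with height. In the 12 members whose nearest consensus within 100 bp was CCGGAAG the median was 137 fragments, and 9 of them had at least 100. In the 8 with CAGGAAG it was 11, and 2 had at least 100, PSMB1 and PSMD6. Of these 8, PSMD6 and PSME3IP1 also had a CCGGAAG within 100 bp, at 95 and 73 bp. Over all genes the medians were 49 and 15.

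**Figure D4:**
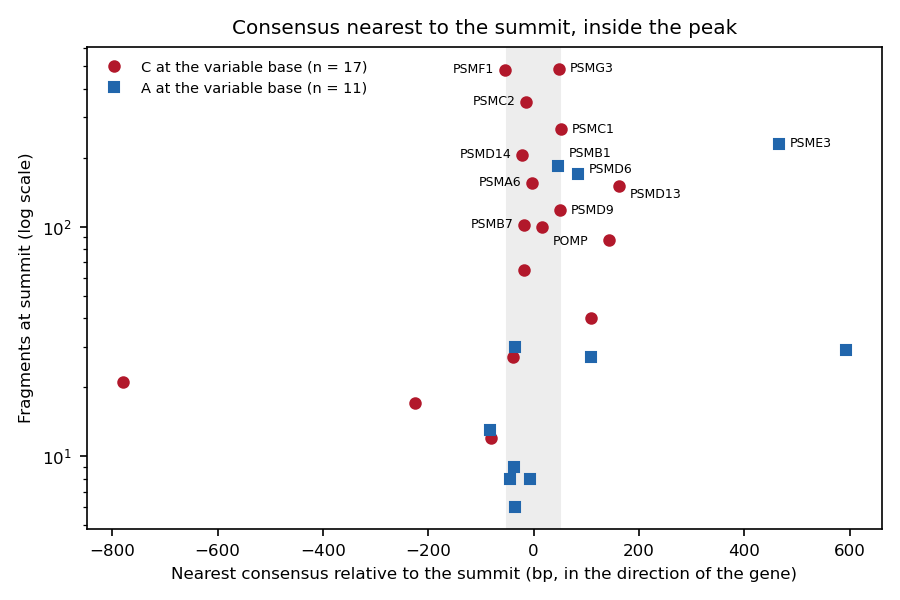
The offset of the consensus nearest to the summit (bp, in the direction of the gene) is plotted against the fragments at the summit (log scale) for the 28 members with a consensus in the peak. Circles carry C at the variable base (n = 17) and squares A (n = 11), the grey band spans 50 bp on either side of the summit, and 10 of the 16 members with at least 100 fragments, 9 of them circles, have their consensus within 60 bp.

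CCGGAAG occurred more than once near some of the highest summits. At least 2 copies within 100 bp of the summit were found at PSMG3, PSMF1, PSMC2, PSMA6 and PSMC6, or 9.62% of the members with a peak, beside 2.81% of all such genes, a count made after the sites had been seen. In PSMG3 a pair overlapped on opposite strands within the same 10 bases, so the second copy is the palindromic reading of the first. In PSMF1, PSMC2 and PSMA6 the summit lay between the pair. The median pileup of these 5 members was 351, although PSMC6 had 12, against 102 for the 9 members with 1 copy and 20 for the 38 with none. Over all genes the medians were 102, 40 and 9, and among genes of at least 100 fragments they were 202, 205 and 196.

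The promoters themselves, taken as 250 bp upstream to 50 bp downstream of the canonical start, often held letters that known regulators recognise. CCGGAAG on either strand was present in 21 of 53 promoters, or 39.6%, beside 14.1% of all coding promoters. The 21 genes had a median of 102 fragments and 12 of them (57.1%) at least 100, whereas the 32 without it had a median of 19 and 4 (12.5%) at least 100. Over all genes the shares were 28.0% with the heptamer and 5.10% without. CAGGAAG was present in 8 promoters (15.1%, beside 12.3%).

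TGACNNNGC, the antioxidant response element through which NFE2L1 induces proteasome genes, was present in 15 promoters, or 28.3%, beside 14.0%, and in 6 of 52 summit windows of 101 bp, or 11.5%, beside 3.99%. These 6 were ADRM1, PSMB3, PSMB6, PSMD1, PSMD3 and PSMD9, whose summits ranged from 4 fragments at PSMB6 to 118 at PSMD9, so summits over this element were both low and high. CCAAT was found in 43.4% of the members' promoters beside 36.1%, the GC box GGGCGG in 67.9% beside 61.3%, and AAGATGGCG, the letters of the YY1 site, in 7.55% beside 2.84%. GCGCATGCG, the letters of an NRF1 site, was found at PSMA4 only, or 1.89% beside 2.70%. The interferon element GAAANNGAA was present at 8 members (15.1%, beside 7.04%), POMP, PSMB10, PSMB4, PSMB8, PSMC2, PSME1, PSME2 and PSMG4. TTCNNNGAA, the gamma activated site, was present at 7 (13.2%, beside 6.49%). These are letter matches and not measured sites.

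IgG was compared on the chromosomes that both lists cover, where 5 members lie, PSMB4, PSMA5, PSMB2 and PSMD4 on chromosome 1 and PSMG1 on chromosome 21. Each had an IgG peak within 3 kb of a start, beside 68.7% of the 3011 coding genes there. The strongest IgG pileup within 3 kb was 7 at PSMB4, PSMA5, PSMB2 and PSMD4 and 6 at PSMG1. The median of all coding genes with an IgG peak was 7. These IgG summits were not read at the ZBTB11 summits. In the same order of genes, they lay 1430, 157, 1538, 115 and 1325 bp from the nearest start. The ZBTB11 summits lay 23, 61, 893, 68 and 523 bp from the nearest start. With ZBTB11 the same genes had 42 (30.3 to 56.8), 29 (19.4 to 41.6), 26 (17.0 to 38.1), 18 (10.7 to 28.4) and 9 (4.12 to 17.1). For PSMB4, PSMA5 and PSMB2 the intervals did not overlap that of IgG, 2.81 to 14.4, whereas those of PSMD4 and PSMG1 did. The 5 IgG peaks had −log10 q values of 0.207 to 0.556 and so missed the q threshold. The strongest ZBTB11 peak itself overlapped an IgG peak at PSMA5 and PSMG1, by 264 and 283 bp, or 2 of 5 beside 24.3% of coding genes. Pileups were not scaled between the libraries, whose genome-wide backgrounds were 1.35 (ZBTB11) and 1.55 (IgG) fragments. None of the 16 highest members lies on these chromosomes, so their height has no IgG value beside it.

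**Figure D5:**
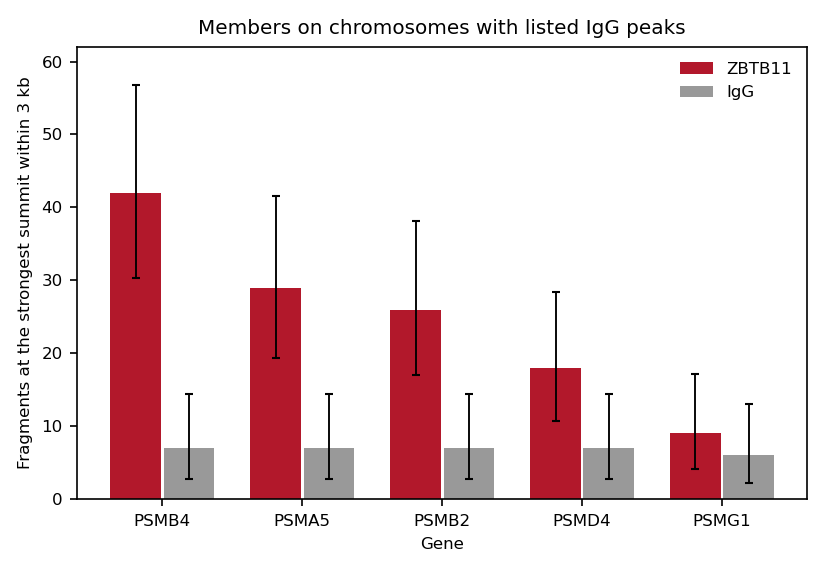
Bars from 0 give the fragments at the strongest ZBTB11 and IgG summit within 3 kb of a start for the 5 members on chromosomes 1 and 21, with exact Poisson 95% intervals. The ZBTB11 bars fall from 42 at PSMB4 to 9 at PSMG1 while the IgG bars stay at 6 or 7.

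The other genes of the ubiquitin-proteasome pathway were examined as a list of 30. All 30 had a peak, 21 (70.0%) one within the p threshold and 23 (76.7%) one within the q threshold, beside 46.9% and 55.3% of all genes, which is close to the members' shares. They differed from the members in height, with a median of 16, a range of 5 to 60 and 0 genes of at least 100 fragments beside 8.33%. AKIRIN2, which brings proteasomes into the nucleus, had 60 (45.8 to 77.2). UCHL5, a deubiquitinase of the cap, had 46 and UBQLN4, a shuttle factor, had 45, but both summits lay nearer to another coding gene, RO60 and LAMTOR2. The regulators of proteasome gene expression all reached the p threshold, with 29 for NFE2L1, 23 for NFE2L2, 35 for DDI2, which cleaves NFE2L1, and 33 for NGLY1, which removes its glycans. The NFE2L2 summit was nearer to AGPS.

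The 5 ubiquitin and ubiquitin-activation genes all reached the p threshold with low summits, at a median of 16. The consensus lay within 50 bp of the summit in 4 of them, beside 13.9% of all genes. Over the whole list of 30 it did so in 6, with 0 or 1 in each other class. At the bottom of the list were NLRC5, the transactivator of MHC class I genes, with 5, and the proteasome-bound proteins UBE3C and TXNL1 with 6 each. Of the antigen processing genes, 4 of 6 reached the p threshold, with 21 for TAPBP, 18 for ERAP1, 14 for TAP2, 12 for TAP1 and 8 for B2M besides NLRC5. Their median of 13 was close to the 12 of the immunoproteasome genes. The 6 genes of shuttle factors and the unfoldase VCP had a median of 12.5 and the 8 proteasome-bound enzymes and factors one of 9.50, near the 9 of all genes.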

How the data were processed

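ChIP-seq peaks of ZBTB11 and IgG were analysed, 1 library each from untreated NCI-H1299 cells. The Input library was left aside and is not analysed here. According to the methods, the authors mapped both mates with BWA against hg38, then ran MACS on either antibody's reads alone at a p-value cutoff of 0.05. The layout of the lists is that of later MACS releases than the one named, so the release is uncertain. The deposited fold enrichment (a ratio of summit to local background), −log10 p and −log10 q were used. The deposited summit offset (other) was used for the summit position, and no reported value was drawn from the deposited score.

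Each summit's fragments and background were solved from fold enrichment and p, with a Poisson background and a pseudocount of 1 (tolerance 0.001 in −log10 p), which succeeded for 100% of peaks and was tested on simulated data. Genes and all transcript starts came from GENCODE release 44. The strongest peak was that with the largest −log10 p within 3 kb of a start. Motifs were searched on both strands of hg38 with Python 3.11.15 and pysam 0.24.0, and an overlap with another motif was allowed. The peak lists hold no total of mapped reads per library, so depth is described by the fragments at summits and the background.

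Members, classes, the pathway list and the consensus were chosen with earlier results of these data known. The count at 100 fragments, the rank of 1000, the numbers of CCGGAAG copies, the split by the variable base and the restriction to the member's own start were chosen after the values were seen. Every member was accounted for. Those given in most detail were the immunoproteasome, thymus and testis genes, the highest and lowest of each class, those next to a threshold, on chromosomes with IgG peaks, or sharing a promoter. With 1 library per antibody no test between groups was made.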

Additional observations from a re-analysis of the deposited data

How the results depend on the processing

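For 7 counts and medians, 42 alternatives were computed, of which 10 were added after the data were seen. In 38 the value stayed within 1.5 times that reported. The 13 members with the consensus within 50 bp of the summit became 20 within 100 bp and 7 with CCGGAAG alone. The 2 members whose strongest peak overlapped an IgG peak became 0 when at least 50% of the ZBTB11 peak had to be covered and 5 when any IgG peak within 3 kb counted. With the p threshold at 1e-10 the count was 35 and with the q threshold at 0.01 it was 41. No paired analysis was possible because each antibody has 1 library.

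Replicate error could not be measured. Intervals of many low summits overlap, such as those of PSMB9 and PSMB8, and the order of such genes is not resolved at this depth. Binding at a shared promoter cannot be assigned to either gene. IgG values exist here for 5 members, none of them among the 16 highest. Peaks do not say whether expression of a member depends on ZBTB11, which was not analysed here.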
